A study of Rattus rattus with 23 samples.

Results

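The samples described are the 8 rats that breathed air in a study of hydrogen sulfide (H2S) inhalation, out of 23 rats with 1 Affymetrix Rat230_2 array each. They were chosen by title alone: 4 arrays titled 24 h air (animals 15, 16, 17 and 18) and 4 titled 144 h air (animals 19, 20, 21 and 22). All were male Sprague-Dawley rats, 60 days old per the labels and 10 weeks old per the design text, in a nose-only exposure system. The rats of 24 h breathed air for 3 h on 1 day, and those of 144 h for 3 h on each of 5 consecutive days, each time counted from the first exposure. Nasal respiratory epithelium at the site where H2S injures and the tissue regrows was taken by laser capture, and its RNA was amplified in 2 rounds before hybridisation. The other 15 arrays came from rats exposed to 200 ppm H2S. Some labels of the air rats are at odds with their titles. All 8 also carry a concentration of 200 ppm, and animal 18, titled 24 h, carries 5 repeat days where animals 15, 16 and 17 carry none. The organism field names Rattus rattus, while the taxonomy number and the strain are those of the laboratory rat. Nothing in the labels pairs animals or gives the hour of sampling, the litter or the slide.

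Respiratory epithelium of the rat nose is a pseudostratified sheet of ciliated, secretory and goblet cells over basal cells, which are its progenitors. It warms and cleans inhaled air, moves mucus by ciliary beat, and holds enzymes that metabolise inhaled chemicals. Below it lie seromucous glands that secrete odorant-binding proteins and other lipocalins, vessels, loose connective tissue, and the bone and cartilage of the turbinates and septum. Olfactory epithelium, which holds the sensory neurons, lies further back.

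Arrays 18 and 22 stood apart from the other 6 air arrays. Hybridisation spikes, control RNAs added in fixed amount before hybridisation, took 63.6% of the summed signal of animal 18 and 25% of that of animal 22, against 0.746% to 2.44% in the other 6 and 0.967% to 2.29% in the 15 H2S arrays. The median Pearson correlation of log2 values with the 6 other air arrays was 0.402 for animal 18 and 0.670 for animal 22, and among those 6 it ran from 0.845 to 0.903. The deposited signals had been scaled to a common trimmed mean, and the array median was 341 in animal 18 and 265 in animal 22 against 143 to 208 in the others. The share of signals below 48 was 23.3% and 24.8% in these 2 and 21.2% to 27.8% in the other 6. The log2 ratio of 3' to 5' Gapdh signal, which grows as RNA is degraded or cut short in amplification, was 4.44 in animal 18, 2.95 in animal 22 and 1.42 to 2.78 in the other 6. It ran from 1.26 to 3.86 in the 15 H2S arrays, so animal 22 lay within their range. The same ratio for beta-actin was 4.63 in animal 18, within the 3.37 to 6.11 of the other 6, and 7.56 in animal 22. The H2S arrays had 3.96 to 7.64. RNA integrity numbers were 4.2, 5.1 and 2.6 in animals 16, 17 and 18 (animal 15 has none) and 5.6, 6.4, 5.1 and 6.9 in animals 19 to 22, so animal 22 has the highest number of the air rats and animal 18 the lowest. Their mean was 6.0 ± 0.804 (SD, n = 4) at 144 h and 3.97 ± 1.27 (SD, n = 3) at 24 h, which did not pass an exact two-sided permutation test (p = 0.0857, adjusted p = 0.514 over 6 quality values; the smallest p this design allows is 0.0286). None of the other 5 quality values passed either. A lone value at the smallest p could not pass after adjustment over 6 values. Without animals 18 and 22 the smallest p is 0.1, so none could pass. These tests therefore cannot show that the groups were alike in quality. Values below are given with and without animals 18 and 22, and "the 6" means animals 15, 16, 17, 19, 20 and 21.

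**Figure D1:**
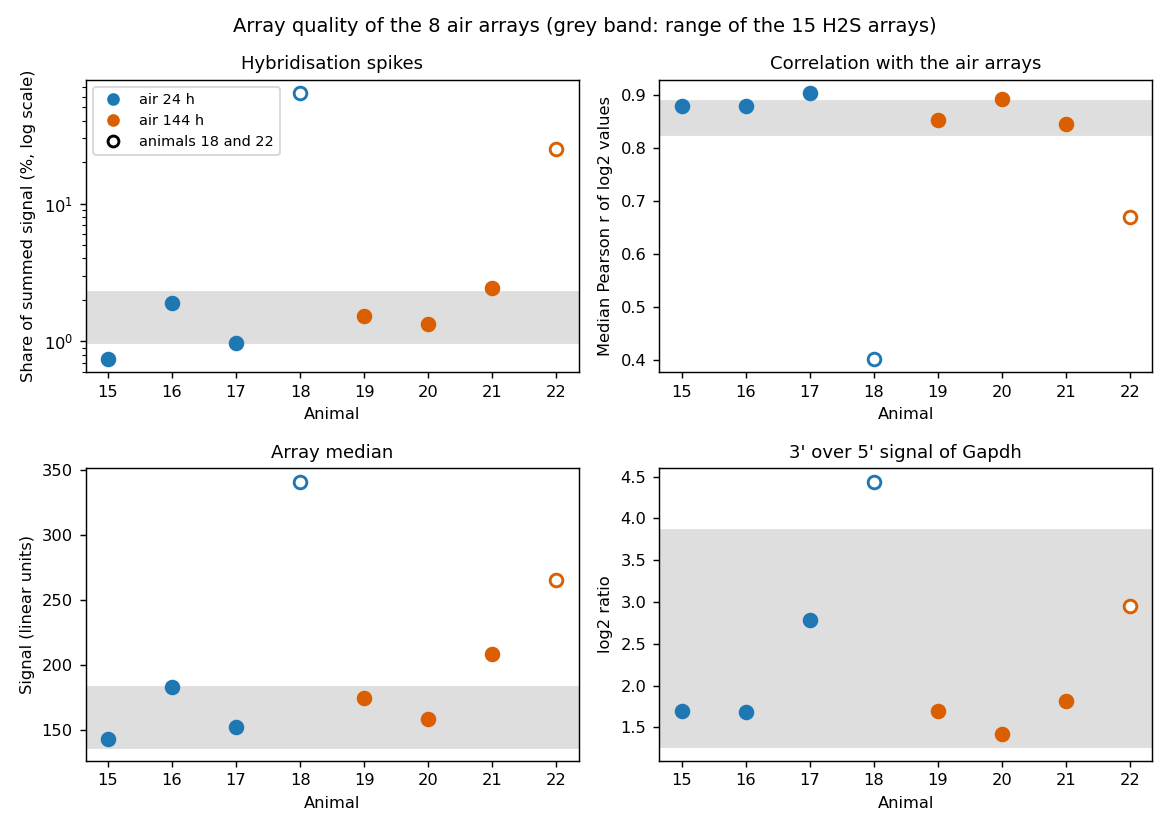
Share of signal in hybridisation spikes (%, log axis), median Pearson r with the 6 air arrays, array median (signal) and log2 ratio of 3' to 5' Gapdh signal, 1 point per air animal, with 24 h in blue, 144 h in orange and animals 18 and 22 as open points. The grey band is the range of the 15 H2S arrays. Animals 18 and 22 lie far above the band for spikes (63.6% and 25%) and below it for correlation (0.402 and 0.670).

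The brightest genes of the 6 fell into a few groups. Taken by mean log2 signal over the 6, with 1 probe set per gene, the 25 brightest held 9 ribosomal protein genes (Rps23, Rps6, Rps3a, Rpl19, Rpl3, Rpl5, Rps28, Rpl13a and Rpl7a) and the respiratory chain genes COX1, COX2 and Ndufa1. They also held the genes of secreted nasal proteins Obp1f, Obp3, Obp2b, Mup5 and Bpifa1, the receptor that carries immunoglobulin into mucus (Pigr), and the collagen chains Col1a1 and Col1a2. Lpal2, Ctnnb1 (beta-catenin), Itm2b, Slc31a2 and Tram1 complete the set. Brightness depends on the probe set as well as on the RNA, so no order within the set is read. Of the 50 brightest probe sets, 29 have 1 symbol, 9 have several and 12 have none, and only the first kind can be named. The 25 genes took 4.39% to 7.58% of the signal of all non-control probe sets in the 6, 10.7% in animal 18 and 10.0% in animal 22.

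On the probe set shown for each gene, Obp1f, Obp3, Mup5 and Bpifa1 lay within 4-fold among the 6 and ranged more widely on the poor arrays. The lipocalin Obp1f, an odorant-binding protein of nasal glands, had signals of 55012, 124865 and 62173 in animals 15, 16 and 17, 993447 in animal 18, 95977, 98955 and 157667 in animals 19, 20 and 21, and 104445 in animal 22. Animal 18 was the highest and the other 7 lay within 3-fold. Mup5, a major urinary protein lipocalin, read 46048, 60868, 49922 and 27062 in animals 15 to 18 and 40023, 81862, 134748 and 34.3 in animals 19 to 22. Animal 22 thus had almost no Mup5 signal, and its Obp3 signal of 3751 was also far below the 52826 to 115744 of the 6. Other probe sets of Mup5 varied more in the 6, 1 from 28582 to 127966 and a dimmer one from 48.8 to 5103. Bpifa1, the abundant airway surface protein, ran from 36223 to 109377 in the 6 and read 252976 in animal 18 and 516957 in animal 22. The ribosomal protein genes among the 25 were lower in animal 18 than in each of the 6 except for Rpl13a; Rps23 had 42976 to 68377 in the 6, 16502 in animal 18 and 45510 in animal 22. Obp2b, another odorant-binding protein, varied more among the 6, with 22286, 40387 and 27717 at 24 h and 104224, 32617 and 11475 at 144 h. Lpal2 read 6433 in animal 19 and 45003 to 127289 in the other 5 of the 6.

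Markers of the labelled tissue were present in each of the 6. Of 18 pan-epithelial genes kept (21 listed, 18 on the array), 16 were above the median of their array on all 6, beside 68.7% of all 11249 genes. Kept means above the median of the own array on at least 3 of the 23 arrays. Epcam, the epithelial adhesion molecule, had 12908, 13231 and 13321 in animals 15, 16 and 17, 2362 in animal 18, 7899, 13384 and 6249 in animals 19, 20 and 21, and 5833 in animal 22. Animals 18, 19, 21 and 22 were the low ones, and the groups overlapped. Krt18 and Krt8, the keratins of simple epithelia, ran from 7579 to 18658 and from 3655 to 10350 in the 6. Prom1, found on apical membranes, ran from 22101 to 38056 in the 6.

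Ciliated cell genes were present in all 6 but uneven between animals. Foxj1, the master regulator of motile cilia, had 499.7, 595, 756 and 721 in animals 15 to 18 and 594, 596, 1155 and 2512 in animals 19 to 22. Of 23 ciliated genes kept (40 listed, 24 on the array), 19 were above the array median on all 6. The level of this list in an animal, its mean log2 value less the mean log2 value over every gene on the same array, was -0.11, 0.81 and 0.76 in animals 15, 16 and 17 and -0.39, 1.09 and 1.34 in animals 19, 20 and 21. Animals 15 and 19 were low, 1 in each group, and animal 22 was the highest at 2.26. Dynlrb2, a dynein light chain, showed the same order at the low end, with 5141 in animal 15 and 3508 in animal 19 against 9437 to 15729 in the other 4 of the 6.

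Secretory markers included genes of several cell states. Muc5b, the gel-forming mucin of glands and secretory cells, ran from 2815 to 6881 in the 6, with 1794 in animal 18 and 4345 in animal 22. Muc5ac, the goblet cell mucin, had 224, 504 and 1576 in animals 15, 16 and 17 and 95.2, 497 and 2680 in animals 19, 20 and 21. It thus varied 24.2-fold among the 6 (signal plus 16), animals 17 and 21 being the high ones of their groups, and animal 22 was higher still at 10732. Xbp1, a transcription factor of secretory cells, was steady at 20141 to 29688 in the 6. Scgb1a1, the club cell secretoglobin of the lower airway, was at or under 46.4 in the 6, and the antimicrobial lectin Reg3g at or under 121. Both were left out by the filter.

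Gland genes varied more than most. Pip, a secreted protein of exocrine glands, had 29392, 57802 and 12515 in animals 15, 16 and 17, 14433 in animal 18, 4923, 52878 and 11228 in animals 19, 20 and 21, and 50.4 in animal 22. Animals 16 and 20 were the high ones, 1 in each group. The median pooled SD within groups was 0.993 log2 units over the 9 gland genes kept and 0.868 over the ciliated ones in the 6, beside 0.444 over all genes. Over the 17 ion and water transport genes it was 0.569, and members differed. Slc12a2, the chloride importer of secretory cells, ran from 19516 to 37192 in the 6, Aqp5, a water channel of gland cells, from 1589 to 4548, and Cftr, the chloride channel, from 623 to 2458. The pooled SD was 0.430 for Slc12a2, 0.569 for Aqp5 and 0.952 for Cftr.

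Basal cell and enzyme genes were measured as well. Krt5, the basal cell keratin, had 231, 278 and 528 in animals 15, 16 and 17, 1484 in animal 18, 310, 279 and 622 in animals 19, 20 and 21, and 3483 in animal 22. The 2 poor arrays were highest and the groups overlapped. Krt14, its partner, varied more, from 197 in animal 19 to 2231 in animal 17 among the 6, with 7772 in animal 22. Among 28 genes of xenobiotic metabolism kept, 20 were above the array median on all 6, a share close to the 68.7% of all genes. Cyp2a3, a cytochrome P450 of nasal mucosa, ran from 8743 to 19409 in the 6, Cyp2f4 from 2113 to 7402, and Aldh1a1, which oxidises retinal, from 11784 to 25068. Cyp4b1 had 299, 728 and 914 at 24 h and 1087, 1066 and 1378 at 144 h in the 6. Its groups did not overlap, yet the difference did not pass (0.98, SE 0.50, limma adjusted p = 1.0 without animals 18 and 22).

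Bone and stromal genes were bright in every air animal. Col1a1 had 39995, 41901, 53198 and 64355 in animals 15 to 18 and 54265, 29680, 119443 and 72969 in animals 19 to 22. Ibsp and Bglap, which encode bone matrix proteins made by osteoblasts, ran from 4115 to 32775 and from 8370 to 27890 in the 6. Dmp1, an osteocyte gene, ran from 7804 to 20784 in the 6, and Mmp13, a collagenase of bone and cartilage, from 12005 to 28410. The same genes were bright in the 15 H2S arrays, where Ibsp ran from 6833 to 39968 and Dmp1 from 4860 to 34461. Signals of bone matrix genes were thus read beside those of epithelium on all 23 arrays. In such bulk samples fewer cells of a type and less RNA per cell cannot be told apart.

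Olfactory and squamous lists stood low in the 6, though some of their members were above the array median. Omp, the marker of mature olfactory neurons, was at or under 62.8 in the 6, with 529 in animal 18 and 178 in animal 22. The olfactory list of 10 genes kept had a level of -2.86 to -1.51 in the 6, -0.64 in animal 22 and 0.87 in animal 18. Of its members, Adcy3 and Gap43 were above the array median on all 6, and Omp, Tubb3 and Cyp1a2 on 0 of them. Hbb, a globin chain, ran from 449 to 668 and was above the array median on all 6. The squamous list stood at -2.54 to -1.33 in the 6, while in the H2S arrays it ran from -2.17 to 4.29. Its members Krt10 (281 to 494) and Anxa8 (1661 to 5118) were above the array median on all 6. The Y-linked gene Eif2s3y ran from 791 to 1700 in the 6 and read 29.4 in animal 18 and 514 in animal 22. Uty, also Y-linked, ran from 281 to 767 in the 6 and read 1020 in animal 18 and 391 in animal 22. Xist, which the filter left out, was at or under 69.2 in the 6, 45.8 in animal 18 and 265 in animal 22.

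**Figure D2:**
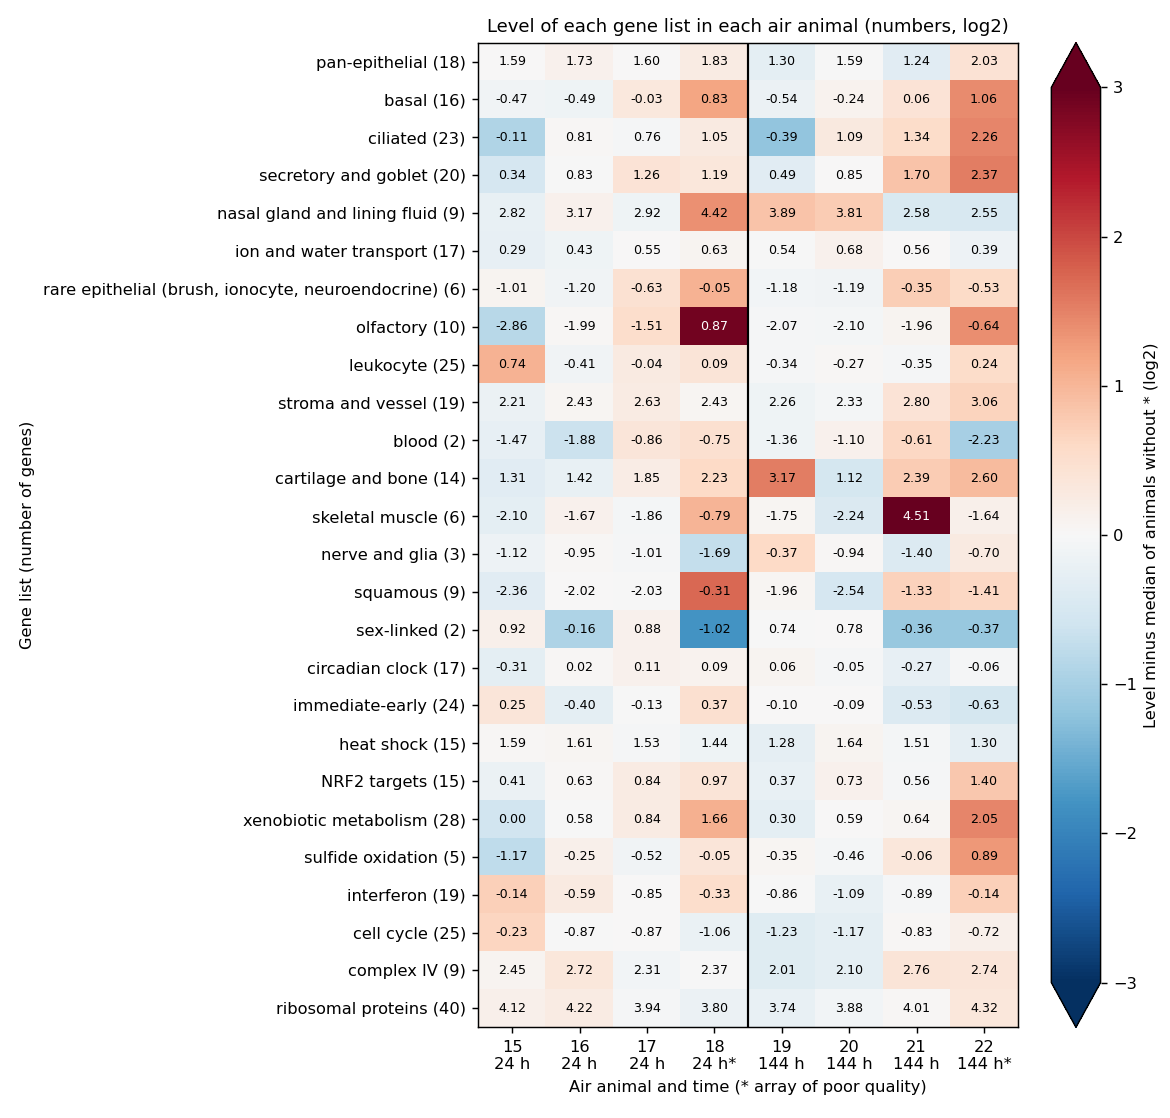
Level of 26 gene lists in the 8 air animals (columns, with the time under each; * marks animals 18 and 22). Numbers are the mean log2 value of the list's kept genes (their number in brackets) less the mean over every gene on the same array; colour is that level minus the median of the 6 animals without *, so colours compare animals within a row and not rows. Red cells are most frequent in the columns of animals 18 and 22, as for olfactory (0.87) and squamous (-0.31) in animal 18 and secretory (2.37) and ciliated (2.26) in animal 22. Among the 6 the reddest are skeletal muscle in animal 21 (4.51) and cartilage and bone in animal 19 (3.17), followed by leukocyte in animal 15 (0.74). In animal 19 cartilage genes such as Col10a1 were high, while the bone genes Ibsp and Dmp1 were the lowest of the 6.

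The spread between animals was set largely by the poor arrays. Over 11249 genes, the median SD of the log2 values was 0.817 at 24 h and 0.636 at 144 h with 4 animals each, and 0.363 and 0.438 with 3 animals, without 18 and without 22. Pooled over both groups it was 0.832 with all 8 and 0.444 with the 6. The 4 H2S groups had medians of 0.378 to 0.476, so the 6 air rats varied about as much as the exposed rats. Pairs among the 6 correlated at 0.811 to 0.929, with 0.878 to 0.927 within 24 h (3 pairs) and 0.811 to 0.872 within 144 h (3 pairs).

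**Figure D3:**
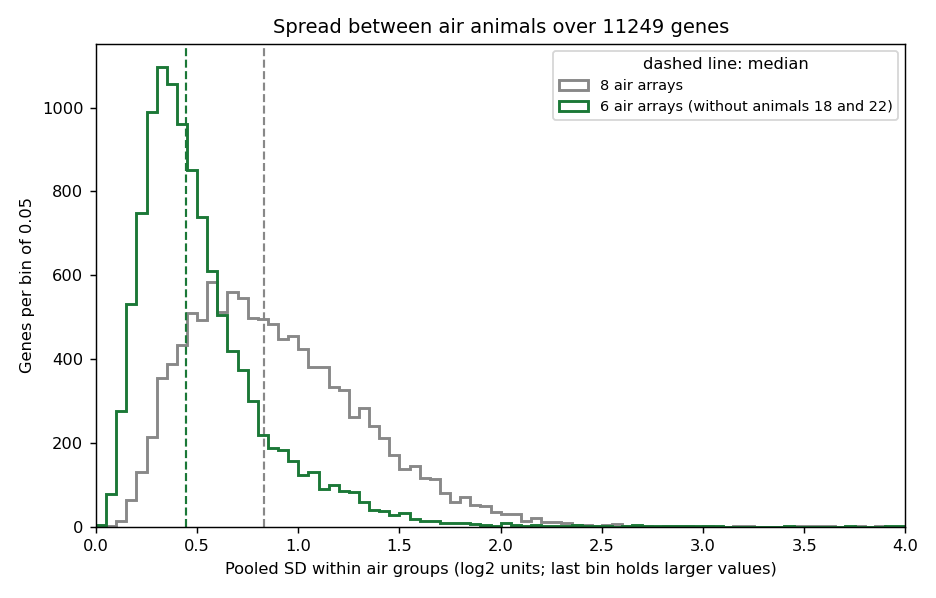
Histogram of the pooled SD within the air groups (x axis, log2 units) over 11249 genes (y axis, genes per bin of 0.05), with all 8 air arrays in grey and the 6 in green. The dashed medians lie at 0.832 and 0.444.

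Among the 5926 genes with a mean log2 of at least 9 in the 6, 125 had a pooled SD above 1. Animal 19 was the farthest from its group in 55 of them, animal 15 in 25, animal 21 in 23, animal 16 in 9, animal 20 in 8 and animal 17 in 5. The 12 largest SDs were those of Dmbt1, Dnase1, Glal, Cytl1, Lcnl, A2ml1, Slco1a5, Fnbp1, Muc5ac, RT1-Bb, Snhg11 and Cd83, from 3.42 to 1.84. Dmbt1, a mucosal scavenger receptor of glands, had 328, 18.6 and 680 in animals 15, 16 and 17 and 59242, 1892 and 149 in animals 19, 20 and 21. Dnase1, a secreted nuclease, had 31470, 201 and 14938 against 7543, 69426 and 28399. In neither gene did the 3 animals of a group resemble each other. At the other end were Dym, Rela, Paip2, Ncoa5, Supt4h1 and Nono, with SDs of 0.0471 to 0.0575; Ncoa5 ran from 600.1 to 659 in the 6 and Nono, a nuclear RNA-binding protein, from 4958 to 5598.

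In 3 of the 6, sets of genes known from other tissues were far above the other animals. These genes were picked after their values were seen, as those over 2 log2 units above every other animal of the 6. There were 36 such genes in animal 15, 41 in animal 19 and 66 in animal 21, against 0 in animal 16 and 1 each in animals 17 and 20. Animal 18 was above each of the 6 by that much in 318 genes and below them in 1533, and animal 22 in 105 and 373.

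Animal 15 (24 h) was high in genes of B cells and lymphoid follicles. Cr2, complement receptor 2 of B cells and follicular dendritic cells, read 8654 in animal 15 and 9.35 to 156 in the other 5. Ms4a1, which encodes CD20, read 5101 against at most 198. Cxcl13, the chemokine that draws B cells into follicles, read 20023 against at most 2274, and the pan-leukocyte gene Ptprc 5562 against 225 to 1098. The leukocyte list stood at 0.74 in animal 15 and -0.41 to -0.04 in the other 5; Bank1, Fcer2, Fcrla, Fcmr and Cd83 showed the same. Among the H2S rats Cr2 reached 4526 and Cxcl13 25401, so high values of these genes also occurred under H2S.

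Animal 19 (144 h) was high in cartilage genes and in some genes of secreted proteins. Col10a1, the collagen of hypertrophic cartilage, read 67084 in animal 19, 59.9 and 477 in animals 20 and 21, and 8.58, 9.04 and 129 in animals 15, 16 and 17. Col2a1, the main collagen of cartilage, read 11132 in animal 19 and 23.3 to 199 in the other 5, and Acan, the cartilage proteoglycan, 9818 against 160 to 447. Another probe set of Col2a1 read 1212 in animal 19 and 14.3 to 229 in the other 5. Col9a1 and Matn1, cartilage matrix genes that the filter left out because few arrays had them, read 9948 and 3015 in this animal and at most 62.2 and 122 in the other 5. Bone genes of the same list were not high in this animal. Ibsp (4115), Spp1 (2402), Dmp1 (7804) and Mmp13 (12005) were each the lowest of the 6. Bglap (9067), Acp5 (1495) and Ctsk (8445) lay within the range of the other 5. Its signals of A2ml1, a protease inhibitor, (100076) and Lcnl, a lipocalin (21642), were also the highest of the 6, where the next highest read 4726 and 623. Its ciliated list was the lowest of the 8, at -0.39. In the 15 H2S rats Col10a1 was at most 1810 and Col2a1 at most 596, while A2ml1 reached 65117 and Lcnl 4785. Dmbt1, at 59242 in animal 19, reached 23210 in an H2S rat.

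Animal 21 (144 h) was high in skeletal muscle genes. Myl1, a fast muscle myosin light chain, read 133136 in animal 21 and at most 189 in the other 5. Myh4 and Acta1, fast myosin heavy chain and skeletal actin, read 26759 and 16853 against at most 60.5 and 62.7. Ckm, muscle creatine kinase, read 7072 against at most 172. The muscle list stood at 4.51 in animal 21, -2.24 to -1.67 in the other 5 and -2.36 to -0.84 in the 15 H2S arrays. Mb, Actn3 and Myh2 read 17380, 21763 and 15553 in this animal, and the filter left them out. Of the 6 muscle genes kept, Myh1 alone was above the array median on all 6, at 6034 to 13510.

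**Figure D4:**
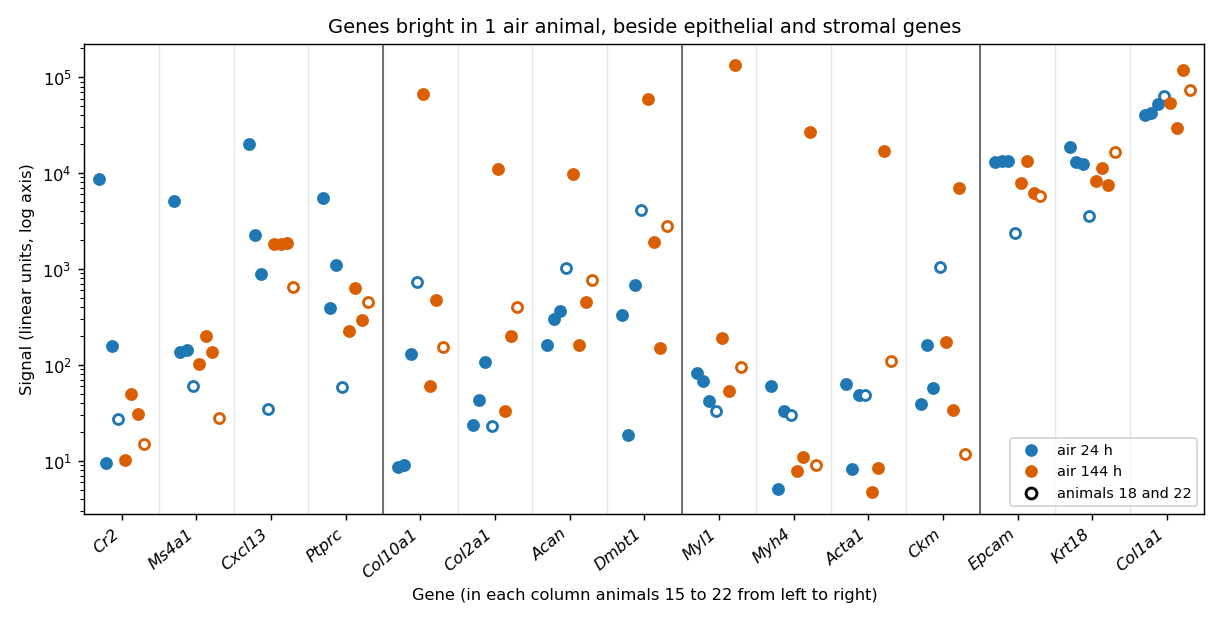
Signal (log axis) of 15 genes in the 8 air animals, in each column animals 15 to 22 from left to right, 24 h in blue, 144 h in orange, animals 18 and 22 open. The first block is high in animal 15 (Cr2 8654), the second in animal 19 (Col10a1 67084) and the third in animal 21 (Myl1 133136). Epcam, Krt18 and Col1a1 on the right vary less than these in the 6, though Col1a1 runs from 29680 to 119443.

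No probe set separated the air rats of 144 h from those of 24 h by limma. With all arrays it called 0 of 19822 probe sets at a Benjamini-Hochberg adjusted p under 0.05 (0%), with 1660 at an unadjusted p under 0.05 and a smallest adjusted p of 0.103. Without animals 18 and 22 it called 0 of 19036 (0%), with 861 unadjusted and a smallest adjusted p of 0.132. Differences are given as 144 h minus 24 h on the log2 scale of signal plus 16, which understates the change of dim genes. The median 95% interval of a gene reached 0.97 to each side with all arrays and 0.82 without the 2, which is about 2-fold on the linear scale before any adjustment for the number of tests. A p that misses the threshold does not show that the groups were alike. When 1 more air animal was left out beside animals 18 and 22, limma called 1 probe set without animal 15 (a probe set with no symbol, 3.24, SE 0.45, adjusted p = 0.0161) and 1 without animal 20 (Batf, -2.84, SE 0.41, adjusted p = 0.0325), and 0 without animal 16, 17, 19 or 21. The median difference over all genes was 0.10 with all arrays and -0.02 without the 2.

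The 2 air groups did not overlap in 246 of 19822 probe sets in which 144 h was above (1.24%) and 168 in which it was below (0.848%) over the 8 arrays, and in 4.76% and 4.43% of 19036 over the 6.

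Chaf1a, which encodes the large subunit of a histone chaperone that assembles chromatin behind replication forks, had the smallest p of all probe sets with and without animals 18 and 22. Its signals were 426, 360, 211 and 294 in animals 15 to 18 and 38.6, 12.9, 38.4 and 75 in animals 19 to 22. All 4 animals of 144 h were below all 4 of 24 h, and on each of the 4 the probe set was under the median of its array. The difference was -2.64 (SE 0.44, limma adjusted p = 0.103), and -2.93 (SE 0.48, adjusted p = 0.132) without animals 18 and 22. The H2S rats of 24 h read 479 to 1210 and those of 144 h 135 to 367.

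The other genes with the smallest p did not pass either. Timm44, of the mitochondrial import machinery, had 7.04, 36.0, 33.1 and 105 at 24 h and 203, 244, 235 and 822 at 144 h, with no overlap (2.68, SE 0.62, adjusted p = 0.542 by limma). Serpina1 (2.08), Mpp2 (1.73), LOC102550394 (1.52) and Snrk (-2.24) did not overlap over the 8 arrays either, and Tmem135, Slc14a2 and Wdtc1 did. Without animals 18 and 22, the next in order after Chaf1a were Batf, a transcription factor of lymphocytes (-2.34, SE 0.43, adjusted p = 0.162 by limma), Lin7b, a cell polarity scaffold (2.22, SE 0.42, adjusted p = 0.162), Npas2, and Gata6, a transcription factor (3.44, SE 0.67, adjusted p = 0.177). Batf read 281, 168 and 253 at 24 h and 11.4, 81.1 and 26.8 at 144 h in the 6, but 75.8 in animal 18 and 399 in animal 22. Gata6 read 3.29, 10.3 and 4.59 against 220, 133 and 367, and 589 in animal 18. Art3 (2.83), Ripply3 (1.55), Sult1c3 (-1.49) and Cklf (-2.49) followed, with no overlap in the 6 and overlap over the 8. Animals 18 and 22 thus stood on the other side of their groups in Batf, and animal 18 in Gata6.

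Npas2 is 1 of 17 clock genes kept. Npas2 and Bmal1 (also called Arntl) encode partners that switch on clock output, and Dbp, Nr1d1, Bhlhe40, Bhlhe41 and the Per genes are among their targets. Npas2 read 348, 431, 515 and 76.5 in animals 15 to 18 and 1442, 1017, 1235 and 552 in animals 19 to 22. Every animal of 144 h was above every animal of 24 h, with a difference of 1.77 (SE 0.43, limma adjusted p = 0.542), and 1.48 (SE 0.28, adjusted p = 0.162) without animals 18 and 22. All 15 H2S rats lay between 218 and 551, those of 144 h between 382 and 551, so animals 19, 20 and 21 were above every other rat of the series, a contrast that was not tested.

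Bmal1 read 121, 158 and 129 in animals 15, 16 and 17 and 315, 303 and 246 in animals 19, 20 and 21. These 6 did not overlap, at a difference of 1.00 (SE 0.39, limma adjusted p = 1.0). Animal 18, at 1066, and animal 22, at 40.7, turned the sign with all arrays (-0.31). Dbp read 349, 1260 and 1064 against 274, 163 and 392, where animal 15 lay among the animals of 144 h; its difference was -1.52 (SE 0.52) without the 2 and -0.48 (SE 0.59) with them. Nr1d1 read 369, 818 and 793 against 310, 363 and 269, with no overlap by a narrow margin. Bhlhe41, a repressor of the clock, read 1975, 3303 and 3275 against 1251, 1758 and 1090 (-1.04, SE 0.40), and Bhlhe40 147, 303 and 141 against 106, 74.2 and 17.5 (-1.49, SE 0.38). For all 5 limma gave an adjusted p of 0.762 or more without animals 18 and 22. Bmal1 was under the array median in animals 15, 16 and 17, and Bhlhe40 in animals 17, 19, 20 and 21.

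In the whole list, 17 of 20 clock genes were on the array and kept, and 16 were tested without animals 18 and 22. The groups of the 6 did not overlap in 5 of these 16, with Npas2 and Bmal1 above at 144 h and Nr1d1, Bhlhe40 and Bhlhe41 below, beside 4.76% and 4.43% of all probe sets. An unadjusted p was under 0.05 for 6 of the 16, and 0 passed after adjustment. Nfil3 (1.05), Hlf (0.78), Clock (0.41), Cry1 (0.41), Per2 (-0.14), Nr1d2 (-0.26) and Per3 (-0.81) overlapped between the groups. In all, 6 of the 16 were higher at 144 h. Per1, a target like Dbp, was under the array median on all 6 and was not tested without animals 18 and 22. It read 38.4, 18.7 and 20.9 at 24 h against 97.5, 49.5 and 126.6 at 144 h, above with no overlap, unlike the targets that were below. The median difference of the list was -0.16, beside -0.02 for all genes. The hour of sampling is not given in the labels, and its part in these values was not tested.

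**Figure D5:**
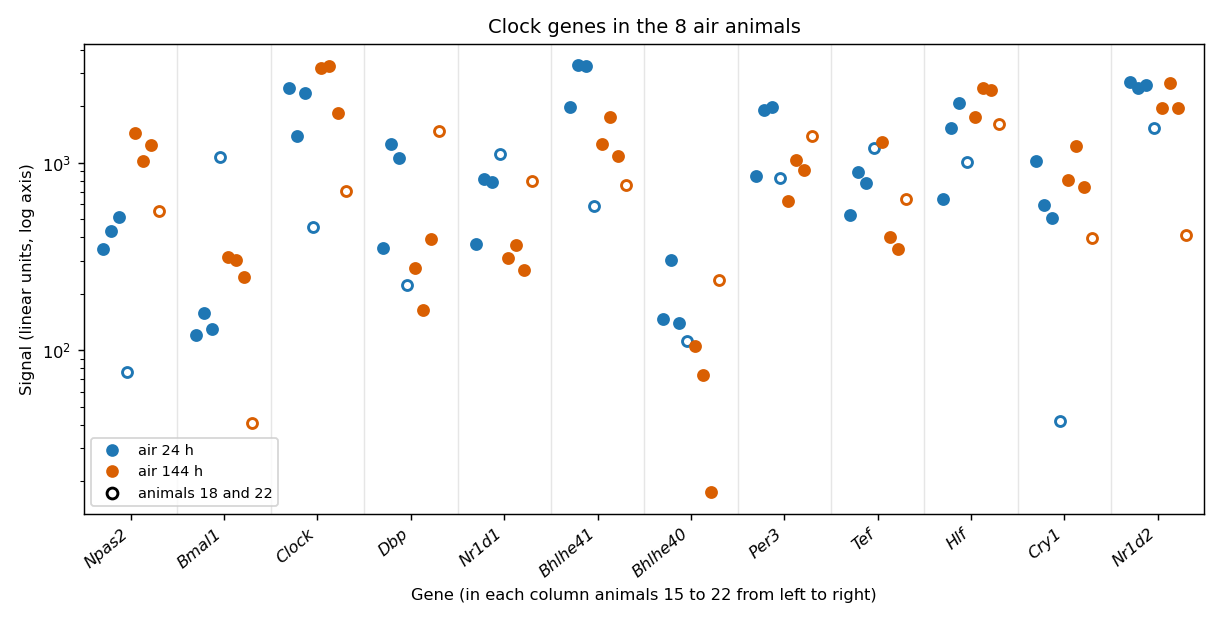
Signal (log axis) of 12 clock genes in the 8 air animals, in each column animals 15 to 22 from left to right, 24 h in blue, 144 h in orange, animals 18 and 22 open. Filled orange points lie above filled blue ones for Npas2 (1017 to 1442 against 348 to 515) and Bmal1, and below them for Nr1d1, Bhlhe41 and Bhlhe40; the open points often lie on the other side.

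Cell cycle genes mostly had lower values at 144 h in the 6, with none past the threshold. Without animals 18 and 22, 4 of 25 cell cycle genes were higher at 144 h, beside 47.5% of all genes. The list's median difference was -0.41, beside -0.02 for all genes. With all arrays 10 of 25 were higher, beside 57.7% of all genes, at a median of -0.21 beside 0.10 for all genes. Mki67, the proliferation marker, read 1304, 657 and 586 against 209, 409 and 506 (-1.14, SE 0.65, limma adjusted p = 1.0). Its groups did not overlap in the 6, and neither did those of Mcm4, Mcm6, Nusap1 and Birc5, all below at 144 h. These are 5 of 25 members, beside 4.43% of all probe sets below and 4.76% above. Animal 18 read 140 for Mki67, below all animals of 144 h, and with all arrays the difference was -0.52 (SE 0.63). Over the 8 animals Mcm4 and Birc5 still did not overlap, and Mcm6 and Nusap1 did. Animal 15, which carried the B cell genes, was the highest of the 6 in the cell cycle list, at -0.23 against -1.23 to -0.83; the part of those cells in the list was not tested. Fos read 1391, 789 and 1174 against 373, 674 and 470 (-1.12, SE 0.58), and Egr1 5653, 3300 and 5274 against 2866, 2623 and 2622 (-0.77, SE 0.31). Both are transcription factors induced within minutes of a stimulus. Of the 24 members of their list, 9 were higher at 144 h (median -0.13), and 8 with all arrays (median -0.09). Fos and Egr1 alone of the 24 did not overlap in the 6 (8.33%). That share is near that of all probe sets, 4.43% below and 4.76% above, and is not read as an early response, which was not tested. With all 8 animals the groups overlapped in Fos and Egr1.

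Of 4 keratins of simple epithelium, 3 were lower at 144 h in the 6 without passing the test. Krt7 read 8084, 3553 and 6899 against 1756, 2321 and 1103 (-1.81, SE 0.79, limma adjusted p = 1.0), and 2529 and 6121 in animals 18 and 22. Krt8 and Krt18 did not overlap in the 6 either, and did with all 8 animals. With Krt7 they were 3 of 18 pan-epithelial genes without overlap, beside 4.43% of all probe sets below and 4.76% above. Krt19 read 507, 663 and 1813 against 352, 1608 and 1887 and differed by 0.27 (SE 0.58). Of the others, Epcam, Cdh1 and Prom1 overlapped. In all, 6 of 18 pan-epithelial genes were higher at 144 h, beside 47.5% of all genes, at a median of -0.20. Ciliated and secretory genes had medians of 0.11 and 0.14, with 15 of 23 and 12 of 20 higher. With all arrays these 3 medians were 0.04, 0.50 and 0.72, so animals 18 and 22 moved the ciliated and secretory values most.

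Ribosomal and complex IV genes had small differences whose direction depended on animals 18 and 22. Without animals 18 and 22, 6 of 39 ribosomal protein genes were higher at 144 h (median -0.22) and 0 of 9 genes of respiratory complex IV (median -0.21). With all arrays 29 of 40 and 5 of 9 were higher, at medians of 0.22 and 0.07. Under median centring without the 2 poor arrays the median of all probe sets was itself -0.17. Heat shock genes had a median of -0.17, with 2 of 15 higher, and genes of the NRF2 response to electrophiles -0.09, with 7 of 15. With all arrays both medians were near 0 (0.01 and 0.02), with 8 of 15 higher in each list. Psmb9 (-1.20, SE 0.47) and Isg15 (-1.95, SE 0.79), both induced by interferon, did not overlap in the 6 but did with all 8 animals. With Gbp2 they were 3 of 18 tested in the interferon list, beside 4.43% of all probe sets below and 4.76% above. That list was split 9 to 9 by direction. By limma 0 members of any of the 26 lists passed, with or without animals 18 and 22.

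The differences of some cartilage and muscle genes rested on 1 animal each. Col10a1 differed by 4.93 (SE 1.71, limma adjusted p = 1.0) and Col2a1 by 2.90 (SE 1.30) without animals 18 and 22, by way of animal 19. Another probe set of Col2a1 differed by 1.44 without animals 18 and 22 and by -0.25 with all arrays, where animal 18 read 1684. Myl1 differed by 3.99 (SE 1.85) and Myh4 by 2.58 (SE 1.79), by way of animal 21. In all 4 genes the other 2 animals of 144 h overlapped those of 24 h. Comp (2.42) and Col9a2 (1.28), both of cartilage, did not overlap between the groups of the 6. Comp read 29.0, 66.6 and 108 at 24 h against 593, 152 and 673 at 144 h. Of the 6, it was above the array median in animals 19 and 21 alone. Col9a2 read 262, 573 and 339 against 1701, 602 and 760, with animal 19 the highest and no overlap by a narrow margin. With Acp5, which was below at 144 h (-0.96), Comp and Col9a2 were 3 of 14 cartilage and bone genes without overlap, beside 4.76% of all probe sets above and 4.43% below.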

How the data were processed

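Per the submitters' processing notes, the deposited values are intensity (signal) per probe set from GCOS 1.0; the software settings were not given in the sources used here. On every array the trimmed mean of the deposited intensities (2% off each end) was 499.98, so the authors' values share 1 scale. The 31099 probe sets include 57 controls, which were left out of tests. Symbols came from the platform annotation given with the data: 20832 probe sets have 1, 436 several and 9831 none.

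Values were taken as log2(intensity + 16), which compresses differences of dim probe sets. A probe set was kept where at least 3 arrays had it brighter than the array median (19822 in all). limma 3.58.1 in R 4.3.3 fitted 6 group means to all 23 arrays (lmFit, eBayes), with Benjamini-Hochberg adjustment over all kept probe sets, and was tested on simulated data. Each gene is shown by its brightest kept probe set with 1 symbol (11249 genes). Named are the 25 brightest genes, the 12 most and 6 least variable among genes of mean log2 of at least 9, the 10 of smallest p in each fit, a set of common markers, and, for 26 lists, mainly members among the 4 brightest or the 2 of smallest p. Further list members, named for groups that did not overlap or that went against their list, were chosen after their values were seen. Quality values were compared by exact two-sided permutation tests. The animals, lists and rules were chosen with earlier results of these data known. The number of arrays limits the precision. Nothing states that the rats of a group were handled separately, so p-values measure the spread between these samples.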

Additional observations from a re-analysis of the deposited data

Results flagged for a closer look

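In 169 sets of 4 values, 1 per animal of an air group, the gap between an extreme animal and its nearest neighbour was compared with Dixon's 95% critical value for the share of the range, which chance passes in about 1 of 20 sets. It was passed in 19 sets, of which 5 were by animal 18 and 8 by animal 22. Some of the genes entered because their values were already seen to be extreme in 1 animal, so the tally is not to be set against that rate.

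Animal 18 stood apart in its median correlation with the 6 other air arrays (0.402), its squamous level (-0.31), and its signals of Bmal1 (1066), Gata6 (589) and Epcam (2362). Animal 22 stood apart in the absorbance ratio given in the labels (2.12), its olfactory level (-0.64) and leukocyte level (0.24), and its signals of Bmal1 (40.7), Cxcl13 (645), Mup5 (34.3), Cklf (363) and Timm44 (822). Without these 2 arrays a group has 3 animals, and groups of 3 were not tested in this way.

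The other 6 sets were passed by animals with good arrays. Animal 21 stood apart in its muscle level (4.51) and in Myl1 (133136), Myh4 (26759), Tnnc2 (85880) and, by a small margin, Obp1f (157667). Animal 19 stood apart in Cytl1 (55207), a gene of cartilage. Myl1, Myh4, Tnnc2 and Cytl1 were picked after their values were seen, so that they stand apart here restates that choice.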

How the results depend on the processing

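The count of probe sets called between 144 h and 24 h was 0 in 28 alternatives (24 of them planned), which changed the pseudocount, filter, normalization, weights, covariates, arrays or single animals. The fit without animal 18 entered this count, and the sign counts below, both for its label and as a single animal left out. In 6 added after the data were seen, which left out 1 more animal beside 18 and 22, it ran from 0 to 1. The median pooled SD, 0.832 with all arrays, was 0.444 without animals 18 and 22, and leaving out 1 animal at a time it ran from 0.582 (without animal 18) to 0.866. The median difference of 14 of 26 lists changed sign without animals 18 and 22. Among single genes, Bmal1 took the opposite sign in 11 of 27 alternatives, Muc5ac in 11 of 28 and Obp1f in 10 of 28. No paired analysis was possible because nothing in the labels ties an animal of one time to an animal of the other. With 3 or 4 animals a group, signals under the array median, as of Chaf1a at 144 h, have no measured order.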
